A study of Mus musculus with 6 samples.

Results

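Zinc inside a cell leaves a record in a small set of transcripts, and 10 genes of that set were described here across 6 single-cell libraries of a mouse melanoma model. They are the metallothionein genes Mt1 and Mt2, the zinc exporter genes Slc30a1, Slc30a4, Slc30a5, Slc30a6, Slc30a7, Slc30a9 and Slc30a10, and Mtf1. They were chosen by gene symbol, with earlier results of these data known, and each matched 1 row of the 31053 genes in every library. MTF1 is the zinc-sensing transcription factor of animal cells: zinc fills its fingers, the protein binds metal response elements in promoters, and Mt1, Mt2 and Slc30a1 are its best known targets in the mouse. Metallothioneins are small cysteine-rich proteins that hold zinc and copper, and their genes also respond to hypoxia, glucocorticoids and oxidative stress. SLC30 proteins carry zinc out of the cytosol, while SLC39 proteins carry it in.

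Yumm5.2 cells, a melanoma line established from mouse, formed the tumours after 350000 of them were placed under the flank skin of C57BL/6 mice. All 3 lines carried a short hairpin against Cdkn2a, and they differed in a further hairpin: shSlc39a9 #1 (hairpin 1), shSlc39a9 #2 (hairpin 2) or shControl (control line). Slc39a9 encodes a zinc importer that resides largely in the secretory pathway. Each line gave 1 library from tumours treated with 200 µg anti-PD1 and 1 from tumours treated with IgG, both given into the abdomen 3 times a week, so 4 knockdown libraries faced 2 control libraries. Each line is a single hairpin population. Neither the number of tumours behind a library nor separate animals for each library are given in the labels, so p-values measure only the spread between these libraries, which may be technical.

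The 6 libraries held 58859821 to 83204249 unique molecular identifiers (UMIs, 1 per captured transcript molecule) and 5037 to 8734 cells after filtering. Barcode names were shared between libraries, 3873 to 6931 names per pair. The names run in order of UMI totals within each library, and same-named pairs were no more alike than pairs shifted by 1 name, so same-named barcodes were treated as different cells. Tumour cells, the cells with at most 1 Tyrobp UMI, no Ptprc UMI and at least 5 UMIs of Spp1, Grem1 and Cdkn2a together, numbered 2912 to 5218 per library. Macrophages, with at least 3 UMIs of C1qa, C1qb and C1qc together, numbered 1350 to 1957 per library, and 0.721% to 1.42% of tumour cells met both rules. Macrophages that met a further class rule were few but deep. Leaving them out took the hairpin 2 anti-PD1 library from 1835 to 1774 macrophages and from 7141822 to 6392233 macrophage UMIs. It took the hairpin 2 IgG library from 5589826 to 5332803 macrophage UMIs and the control anti-PD1 library from 8526732 to 7676740. Neutrophils, with at least 3 UMIs of S100a8 and S100a9 together, numbered 74 to 708 per library.

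The class labels held for macrophages and were only partly borne out for the other classes. Levels are given as UMIs per 1000000 UMIs of a class in a library (CPM). Csf1r, the receptor of the macrophage growth factor, stood at 1069 to 1338 CPM in macrophages and at 2.31 to 3.90 in tumour cells. In tumour cells Pax3 and Mitf, which encode melanocyte lineage factors, were detected at 54.5 to 85.2 and at 14.5 to 21.0 CPM. Macrophages held less Pax3, at 8.80 to 14.3 CPM, and more Mitf, at 100.5 to 127 CPM, so Mitf does not set tumour cells apart. The pigment cell genes Sox10, Mlana, Dct and Tyrp1 stayed at or below 0.0432 in every library, and the fibroblast markers Pdgfra and Dcn were present at 163 to 217 and at 478 to 591. The neutrophil rule took in many tumour cells, since 27.2% to 57.9% of its cells also met the tumour rule and tumour cells held S100a8 at 7.05 to 63.7 CPM. Cells that met the neutrophil rule alone had Csf3r, the receptor of the granulocyte growth factor, at 765 to 1081 CPM.

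Metal response elements were looked for first in the promoters, because Mt1, Mt2 and Slc30a1 are the members the results turn on. The stretch of 300 bases from 250 before to 50 after the RefSeq start (GRCm38.p6) was read for all 10 members, and the core letters TGCACNC and TGCGCNC were searched on both strands. The promoters below run 5′ to 3′ on the plus strand, which is the strand of these 3 genes, and capitals mark each match, read as its reverse complement where it lies on the other strand. They are Mt1 at chr8:94178839-94179138, Mt2 at chr8:94172368-94172667 and Slc30a1 at chr1:191906531-191906830.
Mt1: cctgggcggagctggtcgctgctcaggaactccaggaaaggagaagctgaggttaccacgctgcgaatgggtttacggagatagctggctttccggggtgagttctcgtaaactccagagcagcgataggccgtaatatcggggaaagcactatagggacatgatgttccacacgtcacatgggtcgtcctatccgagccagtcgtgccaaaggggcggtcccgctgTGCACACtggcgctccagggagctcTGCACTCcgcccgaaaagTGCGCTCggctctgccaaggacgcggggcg
Mt2: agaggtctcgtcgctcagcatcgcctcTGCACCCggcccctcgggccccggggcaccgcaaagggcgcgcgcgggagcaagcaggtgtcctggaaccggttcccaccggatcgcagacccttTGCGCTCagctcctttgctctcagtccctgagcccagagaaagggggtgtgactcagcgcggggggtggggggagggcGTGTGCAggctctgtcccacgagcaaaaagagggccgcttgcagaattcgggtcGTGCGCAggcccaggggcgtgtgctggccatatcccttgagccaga
Slc30a1: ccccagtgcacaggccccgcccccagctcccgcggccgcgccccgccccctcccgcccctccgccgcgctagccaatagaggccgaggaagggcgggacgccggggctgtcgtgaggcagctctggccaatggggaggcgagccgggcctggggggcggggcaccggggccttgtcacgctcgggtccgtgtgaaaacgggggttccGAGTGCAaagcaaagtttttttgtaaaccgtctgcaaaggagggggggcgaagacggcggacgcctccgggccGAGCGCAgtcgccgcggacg

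Mt2 held 4 matches, Mt1, Slc30a4 and Slc30a10 held 3 each, Slc30a1 held 2 and Slc30a5 held 1. The windows of Slc30a6, Slc30a7, Slc30a9 and Mtf1 held none of these letters. Of all 32851 promoters of the same length, 25.7% held at least 1 match, 7.11% at least 2, 1.97% at least 3 and 0.517% at least 4. In Slc30a10, 2 of the matches overlap on opposite strands. A match is a run of letters and not a measured binding site. Mt2 and Mt1 lie in the same orientation on chromosome 8, 5513 bases apart, and the longest stretch their transcripts share is 20 bases.

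The hairpin target behaved as labelled in tumour cells. Slc39a9 had 8.46 (anti-PD1) and 8.17 (IgG) CPM in hairpin 1 tumour cells, 11.1 and 12.1 in hairpin 2 and 21.1 and 22.8 in the control line. It fell by 1.49 ± 0.09 on the log2 scale in hairpin 1 (SE, adjusted p = 9.64e-05, edgeR quasi-likelihood test) and by 0.98 ± 0.08 in hairpin 2 (adjusted p = 0.00269, same test). In macrophages, which come from the host and carry no hairpin, Slc39a9 stood at 21.4 to 25.2 CPM in all 6 libraries.

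Tumour cells of both knockdown lines held fewer metallothionein transcripts than those of the control line. Mt1 had 347 (anti-PD1) and 466 (IgG) CPM in hairpin 1 tumour cells, 625 and 509.9 in hairpin 2 and 842 and 798 in the control line. Mt2 had 286 and 338 in hairpin 1, 581 and 500.3 in hairpin 2 and 813 and 767 in the control line. The lines did not overlap for either gene: every hairpin 1 library lay below every hairpin 2 library, and every hairpin 2 library lay below both control libraries. How many of all genes separate the lines like this was not counted.

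Slc30a1, the plasma membrane exporter through which cells shed excess zinc, followed the same order. It had 4.63 (anti-PD1) and 6.31 (IgG) CPM in hairpin 1 tumour cells, 9.75 and 8.54 in hairpin 2 and 12.0 and 12.9 in the control line. With 209 to 886 UMIs behind each value, the counting intervals of hairpin 1 and the control line lay apart.

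Tested as single lines, 5 of the 9 members that passed the filter were lower and 1 was higher in hairpin 1 than in the control line. Of all 15838 genes tested, 41.3% were called in that comparison, so the share of members called is to be read against a broad difference between these lines. The log2 difference was -1.10 ± 0.15 for Mt1 (SE, adjusted p = 0.00194), -1.43 ± 0.11 for Mt2 (adjusted p = 0.000217) and -1.27 ± 0.16 for Slc30a1 (adjusted p = 0.00116), by edgeR's quasi-likelihood test. Mtf1, the sensor, fell by 0.54 ± 0.07 (adjusted p = 0.00179, edgeR), and Slc30a4, a vesicular exporter known for loading zinc into milk in the mouse, fell by 0.44 ± 0.06 (adjusted p = 0.00154, edgeR). Slc30a7, a Golgi transporter, was the member that rose, by 0.17 ± 0.05 (adjusted p = 0.0417, edgeR), a call that was lost without any 1 of the 6 libraries and by DESeq2 (adjusted p = 0.186).

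Hairpin 2 gave smaller differences from the control line, with 3 members lower and 1 higher against 14.4% of all genes called. The log2 difference was -0.59 ± 0.15 for Mt1 (adjusted p = 0.0468), -0.60 ± 0.11 for Mt2 (adjusted p = 0.0167) and -0.22 ± 0.06 for Slc30a4 (adjusted p = 0.047), by the same edgeR test. Slc30a5, which loads zinc into the secretory pathway together with Slc30a6, rose by 0.23 ± 0.05 (adjusted p = 0.0353, edgeR). DESeq2 called Mt2 and Slc30a4 but neither Mt1 (adjusted p = 0.157) nor Slc30a5 (adjusted p = 0.07). Slc30a1 differed by -0.50 ± 0.15 and missed the threshold (adjusted p = 0.0673, edgeR), while DESeq2 called it (adjusted p = 0.0464) and so did edgeR without the filter on low counts (adjusted p = 0.0105). The Slc30a1 value was -0.74 without the hairpin 2 anti-PD1 library (adjusted p = 0.0203, edgeR) and -0.28 without the hairpin 2 IgG library (adjusted p = 0.392, edgeR), and it was also called when either hairpin 1 library was left out. Mtf1 differed by 0.00 ± 0.07 (adjusted p = 0.989, edgeR). Both comparisons use the same 2 control libraries and each sets 1 line against 1 line, so a hairpin and a line cannot be told apart. The hairpin 2 calls are thin: leaving out either control library or the hairpin 2 IgG library left 0 of the 4 members called.

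**Figure D1:**
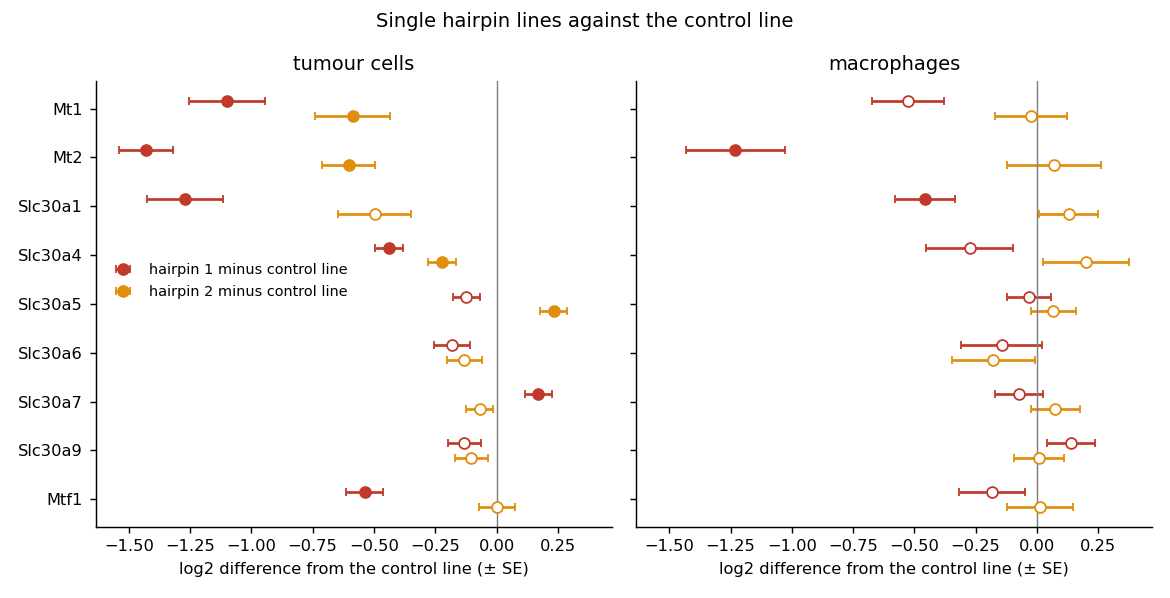
Log2 difference of each hairpin line from the control line (x axis, bars are standard errors of the edgeR fit) for the 9 members that passed the filter, in tumour cells (left) and macrophages (right); filled points had an adjusted p under 0.05. In tumour cells Mt1, Mt2 and Slc30a1 lie farthest to the left in both lines, at -1.10, -1.43 and -1.27 in hairpin 1 and at -0.59, -0.60 and -0.50 in hairpin 2.

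The difference between the hairpin lines was itself tested. Hairpin 2 was above hairpin 1 in tumour cells by 0.51 ± 0.15 for Mt1 (adjusted p = 0.0453), by 0.82 ± 0.11 for Mt2 (adjusted p = 0.00254), by 0.78 ± 0.16 for Slc30a1 (adjusted p = 0.0118) and by 0.54 ± 0.07 for Mtf1 (adjusted p = 0.00293), all by edgeR. Slc30a4 and Slc30a5 were also higher and Slc30a7 was lower in hairpin 2, so 7 of the 9 members were called where 28.9% of all genes were. The Mt1 difference was not called without the anti-PD1 library of hairpin 1 (0.21, adjusted p = 0.156, edgeR) or of hairpin 2 (0.27, adjusted p = 0.23, edgeR), and it was 0.84 and 0.76 without their IgG libraries. It was also not called by DESeq2 (0.52, adjusted p = 0.185) or without cycling cells (0.38, adjusted p = 0.108, edgeR). The remaining Slc39a9 level was lower in hairpin 1 as well, at 8.46 and 8.17 CPM against 11.1 and 12.1 in hairpin 2. With 3 lines, a relation between the remaining target and the members cannot be tested.

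Pooled over both hairpins, none of the 9 members passed, and none of the 15838 genes did (0% called). Mt1 differed by -0.82 ± 0.24 (adjusted p = 0.18), Mt2 by -0.96 ± 0.31 (adjusted p = 0.209), Slc30a1 by -0.83 ± 0.32 (adjusted p = 0.241) and Slc30a4 by -0.33 ± 0.10 (adjusted p = 0.201), by edgeR with genotype and treatment as terms. These 4 members, and 3132 genes in all, had an unadjusted p under 0.05. The hairpin target Slc39a9 did not pass this comparison either, at -1.21 ± 0.20 (adjusted p = 0.125, edgeR). DESeq2 called 1238 genes and 2 members, Mt1 and Mt2, both lower. Both tools count the 2 libraries of a line as separate samples, although same-line knockdown libraries deviated together (correlation 0.627). With the libraries of each line summed, edgeR gave -0.81 for Mt1 and -0.95 for Mt2, with an adjusted p of 0.917 for each and 1 residual degree of freedom. All 4 knockdown libraries lay below both control libraries for Mt1, Mt2, Slc30a1, Slc30a4 and Slc30a6, a transporter of the secretory pathway. The share of all genes that separate in this way was not counted, so this separation is not read as a result about the members. For Slc30a6 the libraries spanned only 18.9 to 21.0 CPM.

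Among the other exporters, Slc30a6 and Slc30a9 varied least. In tumour cells Slc30a6 ranged from 18.9 to 21.0 CPM over the 6 libraries, and Slc30a9, which is linked to mitochondrial zinc, from 42.4 to 48.7. Slc30a7 had 53.0 (anti-PD1) and 49.9 (IgG) in hairpin 1, 43.3 and 41.9 in hairpin 2 and 43.0 and 42.9 in the control line. Slc30a5 had 45.6 and 47.5 in hairpin 1, 57.4 and 59.1 in hairpin 2 and 48.2 and 47.2 in the control line. The higher line thus differed between these members, hairpin 1 for Slc30a7 and hairpin 2 for Slc30a5. Slc30a4 had 250.5 and 284 in hairpin 1, 296 and 311 in hairpin 2 and 325 and 356 in the control line, an order like that of the metallothioneins with a smaller spread. Slc30a10, a manganese exporter despite its family name, had 2 UMIs in hairpin 2 tumour cells under anti-PD1 and 0 in the tumour cells of the other 5 libraries, where 0 counts allow up to 0.0438 to 0.0665 CPM, and it was not tested.

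Mtf1 did not follow the metallothioneins across all lines. It had 18.5 (anti-PD1) and 20.1 (IgG) CPM in hairpin 1 tumour cells, 27.6 and 27.4 in hairpin 2 and 26.9 and 25.9 in the control line. Hairpin 2 tumour cells thus held less Mt1 and Mt2 than control tumour cells at an Mtf1 level that was slightly above both control libraries, a difference that was not called.

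**Figure D2:**
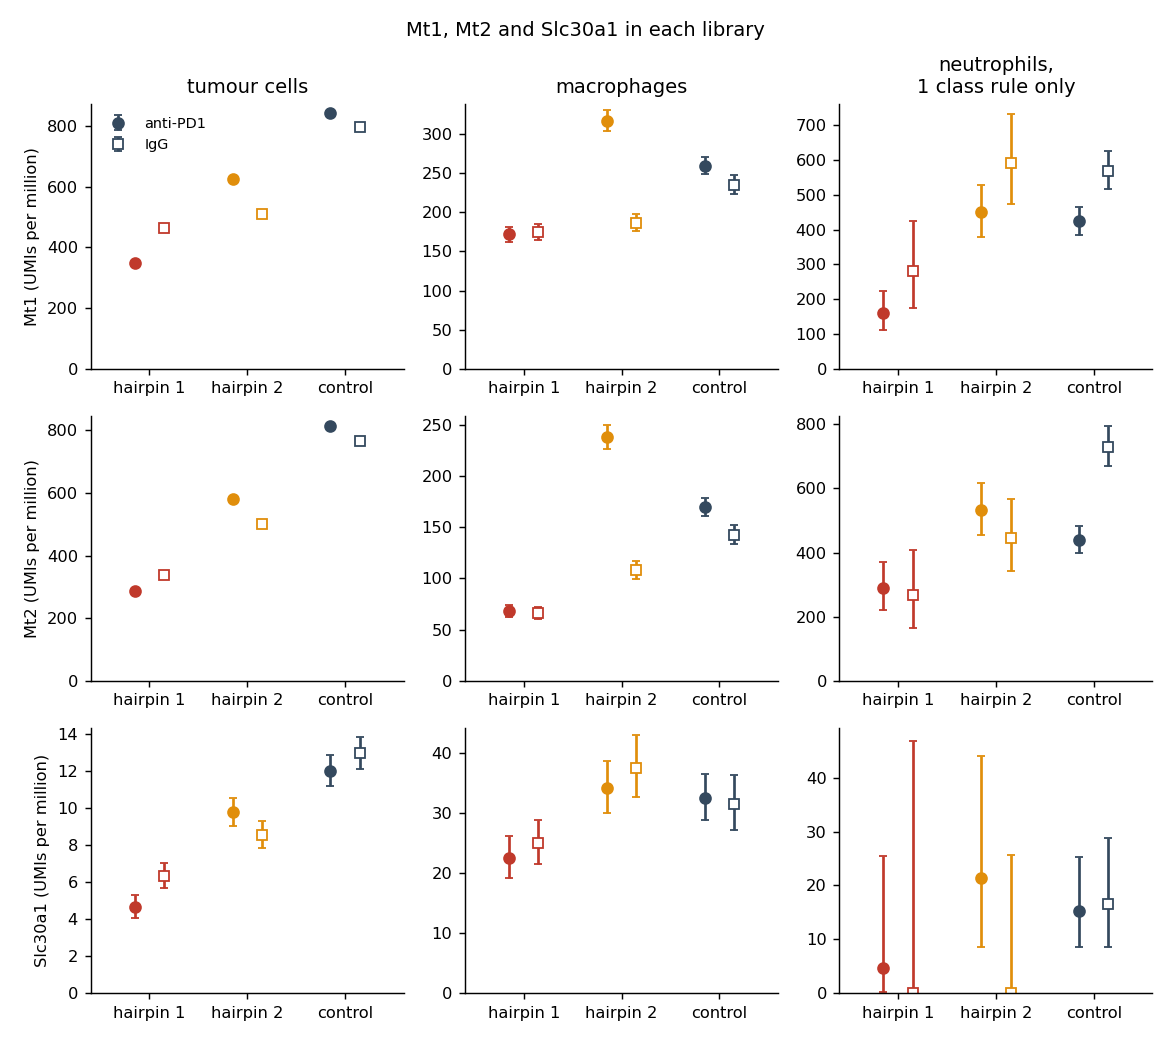
CPM (y axis, from 0) of Mt1, Mt2 and Slc30a1 in each of the 6 libraries by line (x axis), for tumour cells, macrophages and cells that met the neutrophil rule alone; bars are exact 95% Poisson intervals and cover counting error only. In tumour cells both hairpin 1 libraries lie lowest and both control libraries highest, while in macrophages the hairpin 2 anti-PD1 library is highest for Mt1 and Mt2.

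Antibody treatment left no detected difference in any member. Anti-PD1 minus IgG differences in tumour cells lay between -0.12 (Slc30a4) and 0.07 (Mt2) on the log2 scale with standard errors up to 0.31, and 0 of 9 members and 0 of 15838 genes (0%) were called by edgeR. At an unadjusted p under 0.05 there were 123 genes (0.777%) and 0 members, and DESeq2 also called 0. This fit had terms for genotype and treatment but none for line, so the difference between the hairpin lines stayed in its spread. Small treatment effects could therefore go undetected. With line as a block, 0 members were called as well. The printed treatment tests in macrophages and neutrophils used the same terms. The sign was not shared by the lines: Mt1 was lower under anti-PD1 in hairpin 1, at 347 against 466 CPM under IgG, and higher in hairpin 2 (625 against 509.9) and the control line (842 against 798). The interaction of genotype and treatment called 0 of 16474 genes and 0 members by edgeR and by DESeq2, with 52 genes at an unadjusted p under 0.05.

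Within tumour cells, metallothionein transcripts were spread unevenly. To compare cells at equal depth, each tumour cell was thinned to 3000 UMIs, which left out 158 to 452 shallower cells per library. After thinning 45.5% (anti-PD1) and 48.1% (IgG) of hairpin 1 tumour cells held a Mt1 UMI, against 62.3% and 58.3% in hairpin 2 and 73.5% and 71.4% in the control line. Unthinned, the shares were 72.7% and 78.1%, 85.9% and 82.3%, and 91.2% and 91.4% in the same order of lines. Cells without any Mt1 or Mt2 UMI made up 40.6% and 39.7% in hairpin 1, 22.0% and 26% in hairpin 2 and 13.4% and 14.1% in the control line. The 10% of tumour cells with most Mt1 held 54.1% and 57.1% of all Mt1 UMIs in hairpin 1, 46.2% and 46.6% in hairpin 2 and 39.9% and 40.4% in the control line. The mean was 1.10 and 1.41 Mt1 UMIs per thinned cell in hairpin 1, 1.85 and 1.56 in hairpin 2 and 2.58 and 2.45 in the control line, and a lower mean by itself gives more cells without a UMI and a larger share in the top cells. Macrophages thinned to the same depth held a Mt1 UMI in 27.2% to 36.8% of cells. How much of that came from tumour-cell RNA was not tested.

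**Figure D3:**
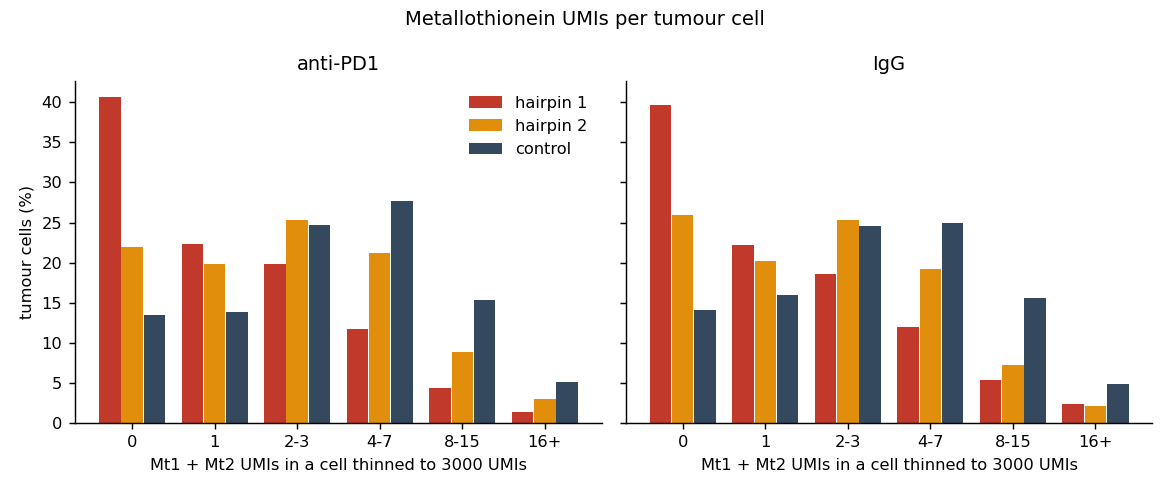
Share of tumour cells (y axis, percent) by the sum of Mt1 and Mt2 UMIs in a cell thinned to 3000 UMIs (x axis, bins), for hairpin 1, hairpin 2 and the control line under anti-PD1 (left) and IgG (right). The bin without a UMI is the tallest in hairpin 1, at 40.6% and 39.7%, while the tallest bin of the control line is the one of 4 to 7 UMIs, at 27.7% and 24.9%.

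Slc30a1 was higher in the tumour cells rich in metallothionein transcripts. Whether this held within the kinds of tumour cell described below was not tested. In thinned tumour cells with at least 4 Mt1 and Mt2 UMIs, Slc30a1 stood at 11.2 (anti-PD1) and 17.9 (IgG) CPM in hairpin 1, against 3.94 and 4.27 in cells with none. In hairpin 2 it stood at 13.6 and 13.5 against 4.46 and 4.94, and in the control line at 13.2 and 18.3 against 6.66 and 10.3. It was thus higher in metallothionein-rich cells in 6 of 6 libraries, although the counts were small, with 12 to 108 UMIs per value. The counting intervals of rich cells and cells with none overlapped in both control libraries and in the hairpin 1 anti-PD1 library. Slc30a4 stood at 276.5 and 296.8 against 229.3 and 235.5 in hairpin 1, and at 283.1 and 318.3 against 228.2 and 248.5 in hairpin 2. In the control line Slc30a4 stood at 280.9 and 320.4 against 292.3 and 301.2. Mtf1 showed no such separation as Slc30a1: it stood at 21.7 to 28.8 in metallothionein-rich cells and at 17.99 to 26.6 in cells with none.

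The genes most like Mt1 from cell to cell were Mt2 and a group of genes known to respond to low oxygen. Among 6677 genes with at least 20 CPM in tumour cells of every library, Mt2 came first, with a median Pearson correlation of 0.681 over the 6 libraries (0.656 to 0.724). The nearest other genes were Bnip3, a mitophagy receptor (0.472), Ero1l, an oxidase of the endoplasmic reticulum (0.468), Higd1a, a mitochondrial protein (0.449), Slc2a1, a glucose transporter (0.434), and Ndrg1 (0.407). Ndrg1 is also described as an MTF1 target. The correlations are across cells of a library, which share its preparation and depth, and are given as a description. Among the members, Slc30a4 came at 0.0775 and Slc30a9 at 0.0644, while Slc30a5 (-0.0237) and Slc30a7 (-0.0136) lay near 0. Slc30a1 and Mtf1 were below the level needed for ranking, with medians of 0.111 and 0.0238. In macrophages the correlations were weak: Mt2 stood at 0.244 and the next gene, Pgam1, at 0.166 among 6787 genes.

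**Figure D4:**
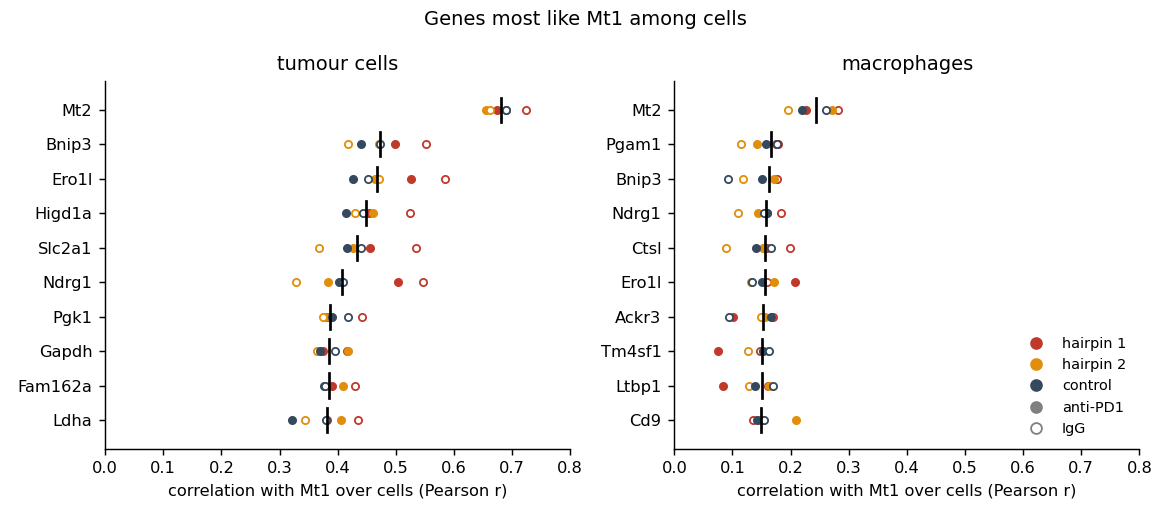
Pearson correlation with Mt1 over cells (x axis) of the 10 genes with the highest median in tumour cells (left) and macrophages (right); points are the 6 libraries and the black bar is their median. Mt2 leads in tumour cells at 0.681, followed by Bnip3 at 0.472 and Ero1l at 0.468, and no gene in macrophages exceeds a median of 0.244.

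The share of hypoxic cells was higher in both control libraries than in any library of the hairpin lines, which lay close to each other under IgG. Tumour cells that were not cycling and held at least 3 UMIs of Slc2a1, Pgf and Angptl4 together made up 17.9% (anti-PD1) and 20.6% (IgG) of hairpin 1 tumour cells, 26.9% and 20.8% in hairpin 2 and 38.6% and 40.3% in the control line. Cycling cells had at least 2 UMIs of Mki67 and Top2a together. They made up 29.4% and 30.2% in hairpin 1, 22.6% and 25.7% in hairpin 2 and 17.3% and 18.1% in the control line. The hypoxic rule leaves cycling cells out, so a larger share of cycling cells lowers the share that can be hypoxic. Both rules count raw UMIs, and the median depth of tumour cells ran from 9492 to 14175.5 UMIs per cell over the libraries. Of 10 hypoxia-induced genes, hairpin 1 had 7 lower and 1 higher, and hairpin 2 had 8 lower and 1 higher, with medians of -0.38 and -0.42 against 0.00 over all genes in each, where 41.3% and 14.4% of all genes were called in either direction. Within hypoxic cells alone the same list had 4 higher and none lower in hairpin 1, with a median of 0.17, and 1 higher and 2 lower in hairpin 2, with a median of -0.23, where 25.7% and 13.2% of genes were called. Slc2a1 is among the 10 listed genes and also helps define the hypoxic cells, so its level within them is shaped by the rule. Pgf is another of the genes that define the hypoxic cells and is also described as an MTF1 target.

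The members were therefore also compared within each kind of tumour cell, a step chosen after the data were seen. In hypoxic cells Mt1 had 784 (anti-PD1) and 1034 (IgG) CPM in hairpin 1, 1002 and 893 in hairpin 2 and 1112 and 1073 in the control line. In the remaining cells, neither hypoxic nor cycling, it had 219 and 266 in hairpin 1, 423 and 399 in hairpin 2 and 635 and 574 in the control line. Hypoxic cells held more Mt1 than the remaining cells in 6 of 6 libraries, and the gap between hairpin 1 and the control line was narrower in them. Slc30a1 was also higher in hypoxic cells in 6 of 6 libraries, at 8.17 to 16.9 CPM against 3.60 to 9.63 in the remaining cells.

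Mt2 was lower in both hairpin lines within every kind of tumour cell by edgeR. In hairpin 1 the log2 difference was -0.66 ± 0.08 in hypoxic cells (adjusted p = 0.000436), -1.54 ± 0.10 in cycling cells (adjusted p = 0.000136) and -1.68 ± 0.09 in the remaining cells (adjusted p = 4.03e-06), where 25.7%, 28.7% and 39.1% of genes were called. In hairpin 2 it was -0.40 ± 0.08 in hypoxic cells (adjusted p = 0.011), -0.47 ± 0.10 in cycling cells (adjusted p = 0.0461) and -0.62 ± 0.08 in the remaining cells (adjusted p = 0.00427), by the same edgeR test, where 13.2%, 3.75% and 8.83% were called. Mt1 fell in the remaining cells of hairpin 1, by 1.39 ± 0.10 (adjusted p = 1.68e-05, edgeR), and of hairpin 2, by 0.60 ± 0.10 (adjusted p = 0.00879, edgeR). In hypoxic cells Mt1 differed by -0.31 ± 0.11 in hairpin 1 (adjusted p = 0.0724, edgeR) and by -0.25 ± 0.11 in hairpin 2 (adjusted p = 0.168, edgeR), and neither passed. In cycling cells Mt1 fell by 1.11 ± 0.12 in hairpin 1 (adjusted p = 0.000874, edgeR) and differed by -0.48 ± 0.12 in hairpin 2, which did not pass (adjusted p = 0.0793, edgeR). Slc30a1 fell by 0.83 ± 0.17 in hypoxic cells of hairpin 1 (adjusted p = 0.00738, edgeR). The size of the Mt1 difference moved by more than 1.5 times with the kind of cell.

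**Figure D5:**
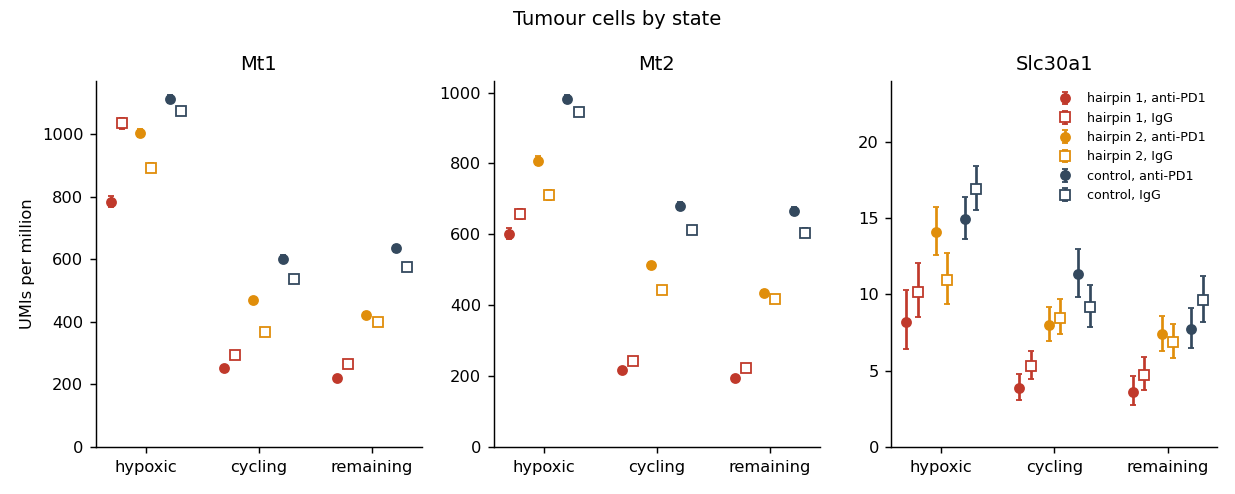
CPM (y axes, from 0) of Mt1, Mt2 and Slc30a1 in hypoxic, cycling and remaining tumour cells (x axis) of each library; bars are exact 95% Poisson intervals and cover counting error only. Mt1 in hypoxic cells lies between 784 and 1112 in all 6 libraries, with the hairpin lines overlapping and both control libraries highest, while in the remaining cells the lines lie apart, at 219 and 266 in hairpin 1, 423 and 399 in hairpin 2 and 635 and 574 in the control line.

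The importers that were called were all lower in the hairpin lines. Of 14 zinc importer genes, 12 were tested in tumour cells, and 5 were lower and 0 higher in hairpin 1, against 20.6% lower and 20.7% higher over all genes. The median over the importers was -0.07, against 0.00 over all genes, and the hairpin target Slc39a9 is among the 5. Slc39a14, a plasma membrane importer of zinc and iron, fell by 0.67 ± 0.06 in hairpin 1 (adjusted p = 0.000383, edgeR) and by 0.29 ± 0.06 in hairpin 2 (adjusted p = 0.0245, edgeR). It had 83.8 (anti-PD1) and 77.5 (IgG) CPM in hairpin 1, 102 and 103 in hairpin 2 and 118 and 123 in the control line. Slc39a6 and Slc39a13 also fell in hairpin 1, by 0.30 ± 0.07 (adjusted p = 0.0116, edgeR) and by 0.24 ± 0.06 (adjusted p = 0.0141, edgeR). In hairpin 2, Slc39a9 and Slc39a14 were the 2 importers called lower and 0 were higher, against 6.95% and 7.48% over all genes, with a median of -0.08.

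Mt4, the metallothionein of stratified epithelia that neighbours Mt1 and Mt2, was the only tested gene of the 5 further metallothionein and SLC30 genes in tumour cells. It had 0.687 (anti-PD1) and 0.442 (IgG) CPM in hairpin 1, 0.763 and 0.753 in hairpin 2 and 1.70 and 1.56 in the control line. It fell by 1.64 ± 0.25 in hairpin 1 (adjusted p = 0.00247, edgeR) and by 1.16 ± 0.23 in hairpin 2 (adjusted p = 0.0218, edgeR), at levels of at most 1.70 CPM in any library.

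Of 7 other genes described as MTF1 targets, hairpin 1 had 2 higher and 2 lower, and hairpin 2 had 3 lower, with medians of 0.05 and -0.21. These counts and those of the next lists stand beside 41.3% of all genes called in hairpin 1 and 14.4% in hairpin 2. Gclc, which encodes the catalytic subunit of the enzyme that starts glutathione synthesis, fell in both, by 0.91 ± 0.09 in hairpin 1 (adjusted p = 0.000598, edgeR) and by 0.61 ± 0.09 in hairpin 2 (adjusted p = 0.00975, edgeR). Slc40a1, the iron exporter, rose by 2.18 ± 0.28 in hairpin 1 (adjusted p = 0.00129, edgeR) and fell by 1.72 ± 0.38 in hairpin 2 (adjusted p = 0.029, edgeR), from at most 2.84 CPM in any library. Genes that answer to other known inducers of Mt1 were counted too. Of 8 tested genes of the oxidative stress factor NRF2, hairpin 1 had 5 lower and 1 higher, while hairpin 2 had 5 lower and none higher, with medians of -0.52 and -0.30. Of 7 tested glucocorticoid-induced genes, hairpin 1 had 5 lower and 1 higher, and 0 were called in hairpin 2 by edgeR, with medians of -0.32 and -0.05. None of these genes passed in the pooled edgeR comparison, and their part in the metallothionein difference was not tested.

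Macrophages held the members in other proportions than tumour cells. Over 12 sums, 2 per library with the library as a block, 4 members were higher and 4 lower in tumour cells than in macrophages, where 40.4% and 38.9% of 15987 genes were (79.3% in either direction). Mt1 was higher in tumour cells by 1.35 ± 0.11 (adjusted p = 1.56e-06), Mt2 by 2.07 ± 0.14 (adjusted p = 2.41e-07) and Slc30a4 by 2.26 ± 0.10 (adjusted p = 1.51e-08), by edgeR. Slc30a1 differed by -1.84 ± 0.14 in tumour cells (adjusted p = 7.53e-07, edgeR), at 4.63 to 12.9 CPM against 22.5 to 37.6 in macrophages. Slc30a6 was higher in tumour cells, Slc30a5, Slc30a7 and Mtf1 were lower, with differences of -0.22, -0.26 and -0.35. Without the filter on low counts Slc30a5 and Slc30a7 were no longer called, at -0.10 (adjusted p = 0.223, edgeR) and -0.14 (adjusted p = 0.139, edgeR). Slc30a9 differed by 0.04 ± 0.06 (adjusted p = 0.565, edgeR). Slc30a1 and the metallothioneins thus differed in opposite directions between the cell classes and in the same direction between the lines.

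Transcripts of the genes that the tumour rule uses were present in macrophage barcodes, which bears on which members can be read there. Their source was not tested. Grem1, which the tumour rule uses, stood in macrophages at 17.9% to 26.2% of its tumour-cell level in the same library. Mt2 stood at 18.6% to 23.8% in 5 libraries and at 40.9% in the hairpin 2 anti-PD1 library, and Slc30a4 stood at 17.7% to 31.0%. Mt1 stood at 29.5% to 50.8%, which ran from 29.5% against 25.9% for Grem1 in the control IgG library to 49.5% against 17.9% in the hairpin 1 anti-PD1 library. Of the other genes of the tumour rule, Cdkn2a stood at 15.9% to 26.2% and Spp1 at 18.5% to 39.6%. How much of the Mt1, Mt2 and Slc30a4 signal in macrophage barcodes came from tumour-cell RNA was not tested, and these values are not read as macrophage expression. Slc30a1 stood at 243% to 485%.

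In macrophages Mt1 had 172 (anti-PD1) and 175 (IgG) CPM in hairpin 1 tumours, 317 and 187 in hairpin 2 tumours and 260 and 235 in control tumours. Mt2 had 67.9 and 66.1 in hairpin 1, 238 and 108 in hairpin 2 and 170 and 143 in the control line. The hairpin 2 library under anti-PD1 was the highest for both genes, and its IgG counterpart lay below both control libraries. Cells that also met another class rule held a larger part of the macrophage UMIs in that anti-PD1 library than in its IgG counterpart. Their part in this order was not tested.

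In macrophages 2 of 9 members were called lower in hairpin 1 tumours, where 4.62% of 12873 genes were lower and 9.35% were called in either direction. Mt2 fell by 1.23 ± 0.20 (adjusted p = 0.0044, edgeR) and Slc30a1 by 0.46 ± 0.12 (adjusted p = 0.0451, edgeR), while Mt1 differed by -0.53 ± 0.15 (adjusted p = 0.0542, edgeR). Mt1 was called in 6 other edgeR settings, among them no filter on low counts (adjusted p = 1.35e-07) and doublets kept (adjusted p = 0.0495), and not by DESeq2 (adjusted p = 0.543). Without 1 library it ran from -0.76 (hairpin 1 IgG left out) to -0.30 (hairpin 1 anti-PD1 left out). Grem1 was lower in hairpin 1 macrophages too, at 349 and 409 CPM against 969 and 1054 in control macrophages, and its part in the Mt2 difference was not tested. DESeq2 called neither gene (adjusted p = 0.054 for Mt2 and 0.517 for Slc30a1), and the Slc30a1 call was also lost when any 1 of the 4 libraries of hairpin 1 and the control line was left out. No member was called in hairpin 2 tumours by edgeR, at 0 of 9 with 0 at an unadjusted p under 0.05 and 0 by DESeq2, where 3.62% of genes were called. Mt2 differed there by 0.07 ± 0.19 (adjusted p = 0.908, edgeR), and its sign turned on 1 library: it was -0.48 without the hairpin 2 anti-PD1 library (adjusted p = 0.0409, edgeR) and 0.49 without the hairpin 2 IgG library (adjusted p = 0.0243, edgeR). Hairpin 2 exceeded hairpin 1 by 1.30 ± 0.20 for Mt2 (adjusted p = 0.00503, edgeR) and by 0.59 ± 0.12 for Slc30a1 (adjusted p = 0.02, edgeR), where 6.98% of genes were called. The Slc30a1 difference was not called by DESeq2 (adjusted p = 0.253) or when any 1 of the 4 knockdown libraries was left out.

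Pooled over hairpins, 0 of 9 members were called in macrophages by edgeR, against 0.0855% of genes, and 0 had an unadjusted p under 0.05 or were called by DESeq2. Anti-PD1 gave 0 called members and 0 called genes (0%) in macrophages by edgeR, with 348 genes and 0 members at an unadjusted p under 0.05, and DESeq2 called 0. The knockdown differences of tumour cells and macrophages were set against each other in 1 model, and 0 of 9 members were called, with 0.119% of genes called. Mt1 differed by -0.56 ± 0.14 more in tumour cells (adjusted p = 0.232, edgeR) and Slc30a1 by -0.72 ± 0.17 (adjusted p = 0.214, edgeR), both with an unadjusted p under 0.05, and DESeq2 called 1 member. Whether the members responded differently in the 2 classes is therefore not settled by these libraries.

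Neutrophils could be described for a few cells only. In cells that met the neutrophil rule alone, 32 to 420 per library, Mt1 had 160 (anti-PD1) and 279.9 (IgG) CPM in hairpin 1, 449.7 and 591 in hairpin 2 and 423 and 569 in the control line. Mt2 had 289 and 267 in hairpin 1, 532 and 445 in hairpin 2 and 439 and 730.4 in the control line. Hairpin 1 was lowest for both genes, and hairpin 2 and the control line overlapped. The hairpin 1 values rested on 72 cells with 218331 UMIs in all (anti-PD1) and 32 cells with 78602 (IgG), so this order is uncertain. From 7.35% to 17.6% of these cells held a Mt1 UMI, at median depths of 850.5 to 1114.5 UMIs per cell. Grem1, a gene of the tumour rule, stood at 776 to 3860 CPM in the same cells, against 1950 to 4077 in tumour cells. The source of these transcripts was not tested, and the metallothionein values are not read as neutrophil expression. Slc30a1 rested on 0 to 15 UMIs per library there. Over the whole rule class, which includes tumour cells, 0 of 9 members and 0 of 11276 genes (0%) were called between knockdown and control by edgeR, with 1064 genes and 0 members at an unadjusted p under 0.05 and 83 genes and 0 members called by DESeq2. Anti-PD1 gave 0 called genes (0%) and 0 members there by edgeR and by DESeq2, with 287 genes at an unadjusted p under 0.05.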

How the data were processed

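The deposited values are raw UMI counts per gene and cell barcode, which the authors made with Cell Ranger 7.0.1 on mm10, per the submitters' processing notes. The series has 6 libraries, 1 per line and treatment. Barcodes with under 300 genes or over 20% mitochondrial UMIs were left out, and doublets called by Scrublet (scanpy 1.11.5) were removed. Counts were summed per library and cell class and tested with edgeR 4.0.16 (quasi-likelihood, TMM, filterByExpr, R 4.3.3), with Benjamini-Hochberg adjustment over all genes tested and a threshold of 0.05. The pooled knockdown model held terms for genotype and treatment, which leaves 3 residual degrees of freedom, and single hairpins used line and treatment (2). DESeq2 1.42.0 was an alternative. On simulated counts, edgeR's hairpin 1 test recovered 14.3% of true log2 changes of 0.5 in tumour cells and 83.2% of changes of 1. In macrophages it recovered 23% and 91.8%, so many changes of 0.5 would not be called. Simulated libraries of a line were drawn independently, unlike the real ones, so the simulation does not check the pooled model on this point. CPM, UMIs per 1000000, are relative to all UMIs of a class, and 95% Poisson intervals and floors of 3 counts cover counting error only.

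The members, cell classes and gene lists were chosen with earlier results of these data known. The text names all 10 members, the hairpin target and at most 4 called genes per list, those with the largest change. Likeness to Mt1 is Pearson's correlation of log values, the natural log of 1 plus counts per 10000, over cells of a library, for genes with at least 20 CPM in every library. Same-numbered knockdown libraries come from the same hairpin line, which pairs the treatments: deviations of same-line libraries correlated at 0.627 over 16474 genes.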

Additional observations from a re-analysis of the deposited data

Results flagged for a closer look

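Between the hairpin lines, 9 differences passed a test of the difference itself, given as hairpin 2 minus hairpin 1 on the log2 scale by edgeR. In tumour cells these were Mt2 at 0.82, Slc30a1 at 0.78, Mtf1 at 0.54, Mt1 at 0.51, Slc30a5 at 0.36, Slc30a4 at 0.22 and Slc30a7 at -0.24. In macrophage barcodes they were Mt2 at 1.30 and Slc30a1 at 0.59. The Mt2 value there is not read as macrophage expression. The Slc30a1 call there was lost by DESeq2 and when any 1 of the knockdown libraries was left out. Each sets 1 line with 2 libraries against another, and the hairpin and the line cannot be told apart.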

How the results depend on the processing

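Of 1269 repeats of a member's difference under another setting, 1120 kept their direction and their side of the threshold, 72 were no longer called, 26 became called and 51 changed sign, in each case from a value that was not called. Members called in tumour cells moved as follows: DESeq2 called 2 in the pooled knockdown comparison, and leaving out 1 library at a time gave 0 to 5 for hairpin 2 minus control line (0 without either control library or the hairpin 2 IgG library) and 4 to 7 for hairpin 2 minus hairpin 1 (4 without the anti-PD1 library of either hairpin). Within cell kinds, chosen after seeing the data, hypoxic cells gave 3 for hairpin 1, 1 for hairpin 2 and 3 for hairpin 2 minus hairpin 1, and cycling cells gave 1 for hairpin 2. In macrophages the hairpin 1 count was 0 by DESeq2, 1 without TMM and with the C1q rule at 10 UMIs, and 1 to 3 when leaving out 1 library (1 without control IgG or hairpin 1 anti-PD1). The hairpin 2 count was 0 to 2 when leaving out 1 library (1 without its anti-PD1 and 2 without its IgG library), and hairpin 2 minus hairpin 1 gave 1 by DESeq2, 4 without the filter and 1 to 3 when leaving out 1 library (1 without the anti-PD1 library of either hairpin). Without the filter 1 member was called in neutrophils, and 1 in the tumour minus macrophage knockdown difference, as by DESeq2. With the replicate block (line), anti-PD1 still gave 0 members in each class. The cause of these shifts was not tested.

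For hairpin 2 minus control line in tumour cells, Mtf1 was -0.00901 without the filter, -0.00116 with doublets kept, -0.00681 in cells of 1 class, -0.0432 without cycling cells, -0.0685 in hypoxic cells and -0.0535 to 0.0564 when leaving out 1 library (-0.0312 without hairpin 2 anti-PD1). Slc30a9 was 0.0589 there in hypoxic cells, and Slc30a7 0.0393 in cycling cells. Slc30a9 in hypoxic cells was 0.0931 for pooled knockdown and 0.134 for hairpin 1. Leaving out 1 library gave pooled tumour values of -0.0179 to 0.147 for Slc30a5 and -0.00331 to 0.107 for Slc30a7. For hairpin 2 minus hairpin 1 in tumour cells, Slc30a9 was -0.00234 without TMM, -0.00985 in cycling and -0.0747 in hypoxic cells and -0.0638 to 0.13 when leaving out 1 library, and Slc30a6 was -0.00757 to 0.114. In macrophages, leaving out 1 library gave -0.171 to 0.0319 for Slc30a7 in hairpin 1 and -0.178 to 0.0898 for Slc30a6 in hairpin 2 minus hairpin 1. Slc30a9 was -0.0805 for tumour cells minus macrophages without hypoxic cells.

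For hairpin 2 minus control line in macrophages, leaving out 1 library gave -0.406 to 0.285 for Mt1, -0.479 to 0.486 for Mt2, -0.277 to 0.561 for Slc30a4, -0.00672 to 0.116 for Slc30a5, -0.0199 to 0.154 for Slc30a7, -0.0125 to 0.00924 for Slc30a9 and -0.133 to 0.143 for Mtf1. Mt1 was also 0.00414 without TMM and 0.0514 in cells of 1 class. With doublets kept Mt2 was -0.19, Slc30a9 -0.0309 and Mtf1 -0.00144, and with the C1q rule at 10 UMIs Slc30a4 was -0.0353 and Slc30a9 -0.0523. For the tumour minus macrophage knockdown difference, leaving out 1 library gave -0.0147 to 0.0968 for Slc30a5, -0.0415 to 0.0476 for Slc30a6 and -0.0353 to 0.179 for Slc30a7, and Slc30a6 was -0.0669 in cells of 1 class, -0.0048 with the tumour rule at 10 UMIs and -0.0189 without cycling cells.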
